A study of Homo sapiens with 9 samples.

Results

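The 10 genes described here encode the D-type cyclins (CCND1, CCND2 and CCND3), the E-type cyclins (CCNE1 and CCNE2), the cyclin-dependent kinases CDK2, CDK4 and CDK6, the transcription factor E2F1 and the retinoblastoma protein RB1. They were taken by symbol, without regard to their values, from the 26485 genes listed for each comparison. All 10 were listed and passed the filter on low values in every comparison. Against NS shRNA, CCND2 reached the filter's mean of 10 only through the hairpin libraries. Its mean normalized counts were 7.81 and 8.44 with NS shRNA, against 39.9 with shRNA #1 and 124 with shRNA #2. The cells were MDA-MB-231, a human cell line established from a triple-negative breast cancer, stably expressing a nonspecific (NS) shRNA, ASAH1 shRNA #1 or ASAH1 shRNA #2, with 3 libraries in each group and no drug or second treatment in any of them. ASAH1 encodes acid ceramidase, which splits ceramide into sphingosine and a fatty acid, and the hairpins address what its loss does to the RNA of these cells. The labels call the libraries biological replicates, and the sources used here do not say whether the cells were pools or clones or at what density they were collected.

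D-type cyclins bind CDK4 and CDK6 in early G1, the phase of the cell cycle in which a cell commits to copy its DNA. These kinases phosphorylate RB1, which otherwise holds E2F factors silent, and the freed E2F factors switch on CCNE1, CCNE2, E2F1 itself and the genes of DNA replication. Cyclin E with CDK2 then phosphorylates RB1 further and drives entry into S phase. Cyclins and E2F1 are regulated strongly by protein turnover and phosphorylation as well, which RNA levels do not show. In bulk RNA, a change in the share of cells in one phase of the cycle and a change in RNA per cell cannot be told apart.

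A RefSeq promoter window (GRCh38.p14) was at hand for 6 of the 10 genes, CCND3, CCNE1, CDK4, CDK6, E2F1 and RB1. The windows of CCND3, CDK4 and RB1 lie inside the annotated gene, as does the CDK6 window not shown. Shown are the 250 bases before the start, on the gene's strand from 5′ to 3′, of the 3 genes among the 6 that rose with both hairpins (CCNE1, CDK4 and CDK6, the first of its 2 entries). The window of E2F1, the gene among the 6 that fell most, is also shown. Capitals mark 4 motifs searched on either strand: TTTCGCG and TTTGGCG, forms of the E2F site, CACGTG, the E-box that MYC and related factors bind, and GGGCGG, the GC box that SP1 binds.
E2F1, chr20:33686386-33686635, minus strand: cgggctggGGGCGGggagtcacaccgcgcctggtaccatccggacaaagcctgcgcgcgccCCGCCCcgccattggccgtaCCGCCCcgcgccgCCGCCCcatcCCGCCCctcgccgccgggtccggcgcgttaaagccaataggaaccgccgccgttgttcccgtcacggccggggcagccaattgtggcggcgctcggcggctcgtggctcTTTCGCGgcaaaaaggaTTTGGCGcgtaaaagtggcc
CCNE1, chr19:29811741-29811990, plus strand: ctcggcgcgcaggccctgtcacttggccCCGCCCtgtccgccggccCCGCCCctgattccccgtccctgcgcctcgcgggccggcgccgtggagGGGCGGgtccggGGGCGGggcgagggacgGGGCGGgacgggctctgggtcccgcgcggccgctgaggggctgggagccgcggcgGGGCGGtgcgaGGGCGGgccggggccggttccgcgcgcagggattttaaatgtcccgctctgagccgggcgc
CDK4, chr12:57752311-57752560, minus strand: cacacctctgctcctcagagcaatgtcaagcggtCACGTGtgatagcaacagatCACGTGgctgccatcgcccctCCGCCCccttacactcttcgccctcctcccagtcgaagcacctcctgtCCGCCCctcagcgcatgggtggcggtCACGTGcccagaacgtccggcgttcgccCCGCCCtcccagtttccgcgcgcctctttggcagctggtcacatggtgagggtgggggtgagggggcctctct
CDK6, chr7:92836574-92836823, minus strand: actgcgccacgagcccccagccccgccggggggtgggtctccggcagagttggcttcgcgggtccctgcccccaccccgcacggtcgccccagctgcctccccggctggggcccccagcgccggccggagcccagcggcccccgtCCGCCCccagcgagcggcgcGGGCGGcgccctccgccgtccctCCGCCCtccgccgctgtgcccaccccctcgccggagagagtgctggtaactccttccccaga
The E2F1 window held TTTCGCG from 37 to 31 bases and TTTGGCG from 20 to 14 bases before the start, motifs found in 1.1% and 1.59% of the 35116 promoter windows of this length. CDK4 was the only one of the 4 windows shown with CACGTG, which it held 3 times, and 6.34% of all windows hold it at least once. GC boxes were in all 4 windows shown, 7 times in CCNE1, 5 times in E2F1 and 3 times each in CDK4 and CDK6, and 42.6% of all windows hold at least 1. Among the windows not shown, the first and second of CCND3 held 5 and 2. The third of CCND3, the second of CDK6 and that of RB1 held 0. A match to so few letters is a description of the sequence and was not tested as a binding site.

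Reads on genes, recovered from the deposited values, ranged from 30989598 to 34867548 with NS shRNA, from 23806003 to 39791698 with shRNA #1 and from 35653318 to 49659106 with shRNA #2. ASAH1 had normalized counts of 4436, 4512 and 4518 with NS shRNA against 1268, 1365 and 1348 with shRNA #1 (log2 fold change -1.76, SE 0.05, adjusted p = 9.49e-09 from limma). In the table of shRNA #2, which has its own size factors, it had 4787, 4898 and 4871 with NS shRNA against 780, 807 and 762 with the hairpin (log2 fold change -2.63, SE 0.06, adjusted p = 5.42e-10 from limma). The targeted gene was therefore lower in each hairpin library than in each NS library. Of the markers of the line, VIM, CD44 and EGFR together reached 2980 to 3108 CPM (reads scaled to the library's total) with NS shRNA, 2796 to 2892 with shRNA #1 and 2040 to 2251 with shRNA #2. In the 3 groups in that order, VIM fell (2077 to 2128, 1715 to 1805 and 1174 to 1222 CPM). CD44 stood at 797 to 894, 789 to 870 and 656 to 766 CPM, and EGFR rose (86.1 to 132, 202 to 272 and 192 to 263 CPM). The hormone receptor genes ESR1 and PGR had 0 to 2 reads per library. ERBB2 stood at 98.1 to 105 CPM with NS shRNA and at 61.2 to 74.2 CPM with the hairpins. The leukocyte markers summed to 63.6 to 79.0, 74.8 to 101 and 22.4 to 29.2 CPM in the 3 groups in that order, almost all of it CD68, with PTPRC at 1 to 8 reads and CD3E at 0 to 3 reads per library. Luminal epithelial markers summed to 794 to 859, 395 to 435 and 609 to 699 CPM, fibroblast markers to 50.1 to 51.9, 37.0 to 40.9 and 27.5 to 29.1, and endothelial markers to 3.01 to 3.27, 1.74 to 2.81 and 1.37 to 1.97, and the part of these shifts in the results below was not tested.

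With ASAH1 shRNA #1, 4 of the 10 genes were higher than with NS shRNA (CCND2, CCNE1, CDK4 and CDK6) and 3 were lower (CCND3, CCNE2 and E2F1). Over all 14341 genes tested, 32.8% were higher and 33.3% lower at the same threshold, an adjusted p below 0.05 from limma on log2(normalized count + 1). With ASAH1 shRNA #2, 6 of the 10 were higher (CCND1, CCND2, CCND3, CCNE1, CDK4 and CDK6) and 0 were lower, where 33.5% of the 14250 genes tested were higher and 33.4% lower. The median log2 fold change of the 10 genes was -0.01 with shRNA #1 and 0.37 with shRNA #2, and over all genes tested it was 0.00 and 0.01. CCND2, CCNE1, CDK4 and CDK6 rose with both hairpins, CCND3 moved in opposite directions, and CDK2 and RB1 passed with neither. The counts of higher genes include CCND2, which reached the filter's mean of 10 only through the hairpin libraries. Its place among them is therefore no support for a rise of the 10 genes. Both comparisons use the same 3 NS shRNA libraries, so that the hairpins' results are not independent of each other.

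**Figure D1:**
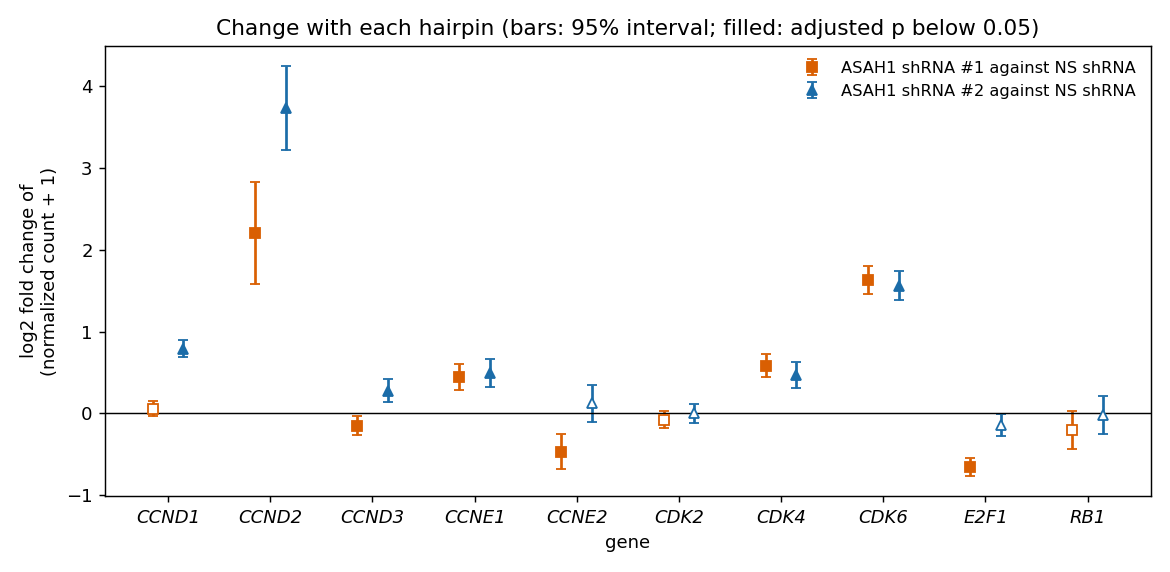
Log2 fold change of each of the 10 genes with ASAH1 shRNA #1 (squares) and #2 (triangles) against NS shRNA, on the log2(normalized count + 1) scale, with 95% intervals from limma and filled symbols at an adjusted p below 0.05. CCND2 and CDK6 lie highest with both hairpins, and CCND1, CCND3, CCNE2 and E2F1 lie higher with #2 than with #1.

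Levels of different genes were compared as reads per kilobase of the union of a gene's exons, scaled to the reads on genes of the library (RPKM). With NS shRNA the order of the mean levels was CCND1 (124 ± 2.93, SD, n = 3), CDK4 (62.7 ± 3.9), E2F1 (51.4 ± 1.82), CCND3 (28.6 ± 0.952), CDK2 (20.4 ± 0.379), RB1 (14.8 ± 2.12), CCNE1 (7.79 ± 0.320), CCNE2 (6.12 ± 0.816), CDK6 (3.72 ± 0.345) and CCND2 (0.0303 ± 0.00495). In this group no gene's libraries overlapped those of its neighbours in the order. With shRNA #1, CDK6 moved from the ninth to the seventh place at 11.7 ± 0.929 RPKM, where its libraries overlapped those of RB1 above it and of CCNE1 below it. With shRNA #2, CDK6 stood at 10.0 ± 0.816 RPKM, next to CCNE1 at 10.0 ± 0.688, and the libraries of the pair overlapped. The order depends on the length used. With the canonical transcript, CCND3 stood above E2F1 in the NS group (81.3 against 51.4), since its exon union of 5761 bases is much longer than its canonical transcript of 2026 bases. With that length CDK4 stood above CCND1 with shRNA #1 (158 against 147), and CCNE2 stood next to CCNE1 in the NS group with overlapping libraries (10.1 and 9.81).

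**Figure D2:**
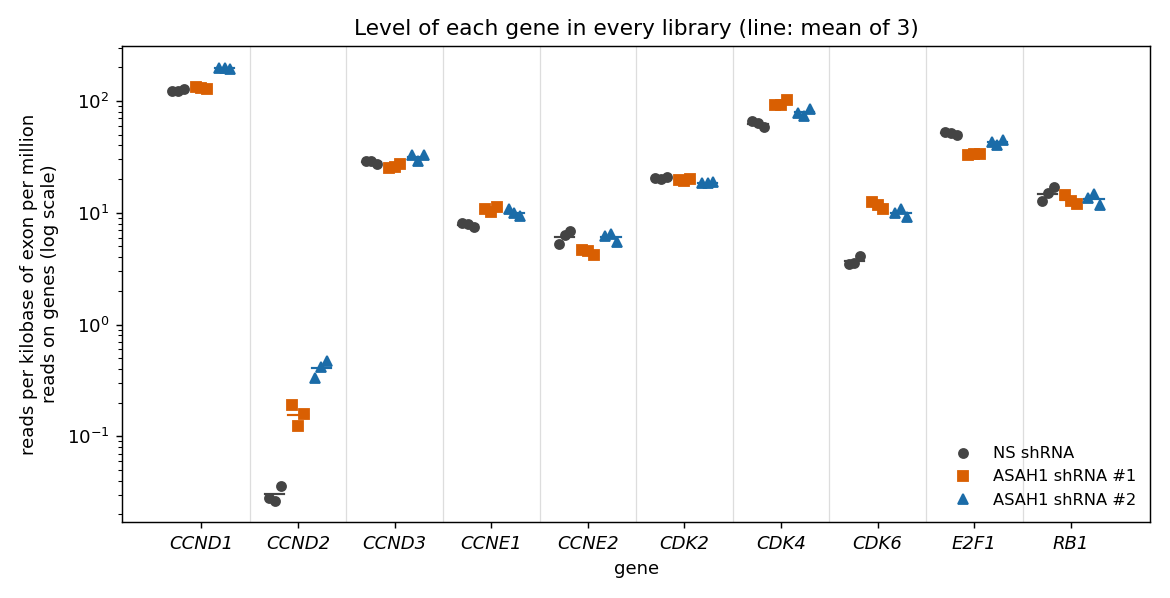
RPKM (log axis) of each of the 10 genes in each of the 9 libraries, with circles for NS shRNA, squares for ASAH1 shRNA #1, triangles for ASAH1 shRNA #2 and a line at each mean. CCND2 lies far below the other genes in all 3 groups, and CDK6 stands at 3.72, 11.7 and 10.0 on average.

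CCND1 (ENSG00000110092, chr11:69641156-69654474, hg38) encodes cyclin D1 and had the highest level of the 10 per kilobase of exon in each group. Its normalized counts were 18879, 18894 and 19555 with NS shRNA and 20293, 19743 and 19534 with shRNA #1, so that the groups overlapped, with a log2 fold change of 0.06 (95% interval -0.04 to 0.15, adjusted p = 0.255 from limma). With shRNA #2 they were 36102, 35988 and 35054 against 20372, 20509 and 21084 with NS shRNA, a 1.73-fold rise (log2 fold change 0.79, SE 0.05, adjusted p = 2.42e-07 from limma). Every shRNA #2 library lay above every NS library.

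CCND2 (ENSG00000118971, chr12:4269771-4305353) encodes cyclin D2 and was close to silent with NS shRNA, with 7, 7 and 10 reads in the 3 libraries. It had 36, 39 and 42 reads with shRNA #1 and 94, 131 and 186 with shRNA #2. The normalized counts were 7.33, 6.87 and 9.23 against 48.1, 31.3 and 40.4 with shRNA #1, a ratio of means of 5.11 (log2 fold change 2.20, SE 0.28, adjusted p = 8.26e-05 from limma). In the table of shRNA #2 they were 7.91, 7.46 and 9.95 against 101, 127 and 144, a ratio of means of 14.7 (log2 fold change 3.73, SE 0.23, adjusted p = 3.34e-07 from limma). The pseudocount of 1 makes the log2 values smaller than the ratios of means for counts this low. The antisense gene CCND2-AS1, which overlaps CCND2 on the other strand, had 1 read in 1 library of shRNA #1 and 0 in the other 8, and the reads were counted by strand.

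CCND3 (ENSG00000112576, chr6:41934934-42050357) encodes cyclin D3. It had normalized counts of 5473, 5397 and 5102 with NS shRNA and 4604, 4755 and 5050.3 with shRNA #1 (log2 fold change -0.15, SE 0.05, adjusted p = 0.0292 from limma). The gap between the lowest NS library and the highest shRNA #1 library was narrow, and the call was lost when any of 4 single libraries was left out (replicates 1 and 2 of either group, adjusted p from limma 0.0841 to 0.113) and in limma without the trend (adjusted p = 0.0665) or with 1 fit of all 9 libraries (adjusted p = 0.0617). With shRNA #2 the gene rose, from 5905, 5858 and 5501 to 7323, 6395 and 7277 (log2 fold change 0.28, SE 0.06, adjusted p = 0.00301 from limma), with no overlap.

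The 3 D-type cyclins together came to 152, 152 and 155 RPKM with NS shRNA, 159, 156 and 156 with shRNA #1 and 231, 228 and 224 with shRNA #2. CCND1 made up 81.3% ± 0.856 of this sum with NS shRNA (SD, n = 3), 83.3% ± 0.902 with shRNA #1 and 85.9% ± 0.988 with shRNA #2, and CCND3 made up 18.7% ± 0.859, 16.6% ± 0.910 and 13.9% ± 0.987. These shares depend on the length used, and with the canonical transcript CCND1 made up 63.2%, 66.3% and 70.8% and CCND3 36.8%, 33.6% and 29.0%. CCND2 made up 0.0198%, 0.0997% and 0.179%, so that after the largest fold change of the 10 genes it still made up less than 1% of the D-type cyclin RNA. None of these shares per exon length overlapped between any pair of groups, although the highest NS library and the lowest shRNA #1 library were close for CCND1 (82.2% and 82.3%), and a two-sided exact permutation test gave p = 0.1 for each, the smallest that 3 libraries against 3 allow.

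CDK6 (ENSG00000105810, chr7:92604921-92836573) encodes a kinase partner of the D-type cyclins and rose about 3-fold with each hairpin. Its normalized counts went from 1376, 1417 and 1621 to 4909, 4546 and 4205 with shRNA #1, 3.09-fold by the means (log2 fold change 1.63, SE 0.08, adjusted p = 1.87e-07 from limma). In the table of shRNA #2 they went from 1485, 1538 and 1748 to 4666, 5053 and 4351, 2.95-fold (log2 fold change 1.56, SE 0.08, adjusted p = 9.13e-08 from limma). All 6 hairpin libraries were far above the NS libraries.

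CDK4 (ENSG00000135446, chr12:57747727-57756013), the other kinase of the D-type cyclins, rose by less. It had 6602, 6408 and 5812 normalized counts with NS shRNA against 9058, 9035 and 10067 with shRNA #1 (log2 fold change 0.58, SE 0.06, adjusted p = 3.23e-05 from limma). With shRNA #2 it had 9366, 8687 and 10095 against 7124, 6956 and 6266 (log2 fold change 0.47, SE 0.07, adjusted p = 0.000167 from limma). The groups did not overlap in either table. CDK4 and CDK6 together came to 66.5 ± 3.55 RPKM with NS shRNA, 107 ± 5.08 with shRNA #1 and 89.1 ± 4.65 with shRNA #2 (SD, n = 3).

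The log2 ratio of CDK6 to CDK4 per kilobase, which does not depend on how libraries are scaled, was -4.25, -4.16 and -3.83 with NS shRNA, -2.87, -2.97 and -3.24 with shRNA #1 and -2.99, -2.77 and -3.20 with shRNA #2. It was higher by 1.05 with shRNA #1 and by 1.09 with shRNA #2 than with NS shRNA, with no overlap (two-sided exact permutation test, p = 0.1 for each, the smallest possible). Between the hairpins it differed by 0.04 and the libraries overlapped (p = 0.8 by the same exact test). CDK4 RNA stayed the more abundant of the pair in every library.

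CDK2 (ENSG00000123374, chr12:55966781-55972789) encodes the kinase partner of cyclin E and passed the test with neither hairpin. Its normalized counts were 2563, 2516 and 2601 with NS shRNA and 2415, 2400.1 and 2467 with shRNA #1 (log2 fold change -0.08, 95% interval -0.18 to 0.03, adjusted p = 0.166 from limma). With shRNA #2 they were 2758, 2745 and 2827 against 2766, 2731 and 2804 (log2 fold change 0.00, 95% interval -0.11 to 0.12, adjusted p = 0.939 from limma). The groups overlapped for shRNA #2 but not for shRNA #1, where the difference still did not pass the test.

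CCNE1 (ENSG00000105173, chr19:29811991-29824312) encodes cyclin E1 and rose with each hairpin. Normalized counts of 639, 631 and 588 with NS shRNA stood against 850.4, 795 and 886 with shRNA #1 (log2 fold change 0.44, SE 0.07, adjusted p = 0.000332 from limma). In the table of shRNA #2, 690.0, 685 and 634 stood against 1015, 931 and 887 (log2 fold change 0.49, SE 0.08, adjusted p = 0.000232 from limma). Neither table showed an overlap.

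CCNE2 (ENSG00000175305, chr8:94879770-94896678) encodes cyclin E2, the close relative of cyclin E1, and did not follow it. It fell with shRNA #1, from 745, 900 and 965 to 647, 633 and 595 (log2 fold change -0.47, SE 0.10, adjusted p = 0.00181 from limma). With shRNA #2 it had 1049, 1084 and 933 against 804, 977 and 1040 with NS shRNA, overlapping values with a log2 fold change of 0.13 (95% interval -0.10 to 0.35, adjusted p = 0.296 from limma). The log2 ratio of CCNE2 to CCNE1 was -0.35 ± 0.248 with NS shRNA, -1.27 ± 0.127 with shRNA #1 and -0.72 ± 0.092 with shRNA #2 (SD, n = 3), with no overlap between any pair of groups (two-sided exact permutation test, p = 0.1 for each, the smallest possible). The gap between the lowest NS library (-0.617) and the highest shRNA #2 library (-0.618) was much smaller than the spread within groups. The sum of the E-type cyclins was 13.9 ± 0.587 RPKM with NS shRNA, 15.2 ± 0.502 with shRNA #1 and 16.1 ± 1.08 with shRNA #2.

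**Figure D3:**
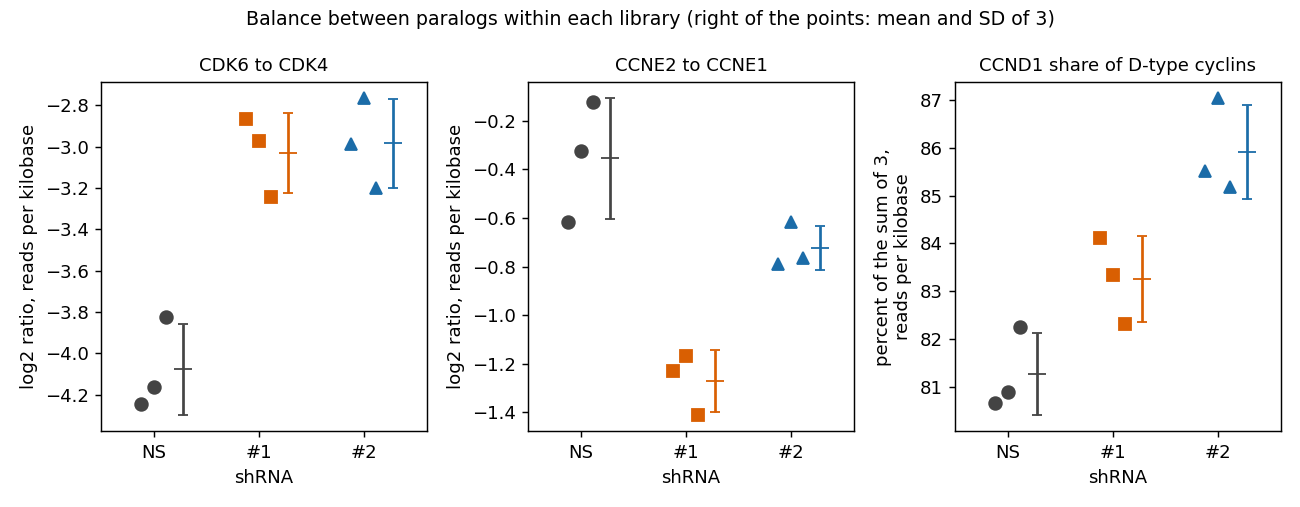
Log2 ratio of CDK6 to CDK4, log2 ratio of CCNE2 to CCNE1 and share of CCND1 in the sum of the D-type cyclins, all per kilobase, in each of the 9 libraries, with the mean and SD of each group to the right of its points. CDK6 to CDK4 is higher with both hairpins than with NS shRNA, and CCNE2 to CCNE1 is lowest with #1.

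E2F1 (ENSG00000101412, chr20:33675477-33686385) encodes the factor that RB1 restrains, and its promoter holds the E2F site letters shown above. It fell with shRNA #1, from 4603, 4532 and 4273 to 2791, 2861 and 2872 normalized counts (log2 fold change -0.65, SE 0.05, adjusted p = 2.63e-06 from limma), with a wide gap between the groups. With shRNA #2 it had 4400.3, 4151 and 4613 against 4967, 4920 and 4607 with NS shRNA. These overlapped by 1 library, and the log2 fold change of -0.14 (95% interval -0.27 to -0.01 before adjustment) did not pass after adjustment (adjusted p = 0.0601 from limma). It did pass in limma with upper quartile rescaling (adjusted p = 0.0176), with 1 fit of all 9 libraries (0.0274) and without NS shRNA replicate 3 (0.0343) or shRNA #2 replicate 3 (0.0351).

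RB1 (ENSG00000139687, chr13:48303744-48599436) varied most within groups among the genes with more than 1000 reads in every library. It encodes the protein that CDK4, CDK6 and CDK2 phosphorylate. It had 2633, 3107 and 3491 normalized counts with NS shRNA and 2922, 2623 and 2451 with shRNA #1 (log2 fold change -0.20, 95% interval -0.43 to 0.03, adjusted p = 0.105 from limma). With shRNA #2 it had 3318, 3586 and 2903 against 2841, 3373 and 3764 (log2 fold change -0.02, 95% interval -0.25 to 0.21, adjusted p = 0.871 from limma). The groups overlapped in both tables. Without NS shRNA replicate 1 or without shRNA #1 replicate 1, the difference with shRNA #1 passed in limma (log2 fold change -0.31, adjusted p = 0.0144, and -0.27, adjusted p = 0.0493).

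The hairpins were compared directly on the recovered reads of all 9 libraries by edgeR's quasi-likelihood test. Of the 10 genes, 5 were higher with shRNA #2 than with shRNA #1 and 0 were lower, where 31.1% of the 14714 genes tested were higher and 32.1% lower. The median log2 ratio of the 10 genes was 0.30, against -0.01 over all genes tested. CCND2 differed most, at 3.47 ± 0.608 TMM-scaled CPM with shRNA #2 and 1.2 ± 0.247 with shRNA #1 (log2 ratio 1.55, SE 0.20, adjusted p = 3.69e-05 from edgeR). CCND1 stood at 996 ± 14.8 and 599 ± 9.44 TMM-scaled CPM (log2 ratio 0.73, SE 0.04, adjusted p = 1.91e-08 from edgeR). The other 3 were CCNE2 at a log2 ratio of 0.59, E2F1 at 0.51 and CCND3 at 0.42, with adjusted p of 0.000179, 7.93e-06 and 0.000107 from edgeR. CDK6 (log2 ratio -0.08), CDK4 (-0.12), CCNE1 (0.04), CDK2 (0.07) and RB1 (0.18) did not pass. Upper quartile normalization lowered the median of all genes from -0.01 to -0.09, and CDK4 then passed as lower with shRNA #2 (log2 ratio -0.20, adjusted p = 0.0274 from edgeR). Residual ASAH1 also differed, at 40.0 TMM-scaled CPM with shRNA #1 and 21.8 with shRNA #2 (log2 ratio -0.88, adjusted p = 6.82e-08 from edgeR), and its part in these differences was not tested.

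The likeness of the 10 genes was described by Pearson's r of TMM-scaled log2 CPM over the 9 libraries, which includes the differences between groups. CCNE1 and CDK6 were most like each other (r = 0.933), CDK4 was most like CCNE1 (0.909) and CCND2 most like CDK6 (0.893). E2F1 and CDK2 formed a pair (0.875), as did CCND1 and CCND3 (0.845) and CCNE2 and RB1 (0.802). Among 11631 genes with a mean of at least 100 reads per library, the genes whose centred log2 CPM ran closest to that of CCND1 were SEC14L1, ZNF326 and EMC1, with root mean square differences of 0.036, 0.040 and 0.041. Those closest to E2F1 were NPR2, CDCA7L and CTDSP1, at 0.031, 0.035 and 0.045.

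Within groups, once each group's mean had been taken away, the genes fell into opposed sets. CDK6, RB1, CCNE2 and CCND1 deviated together over the 9 libraries (r from 0.798 for CCND1 and CCNE2 to 0.953 for CCNE2 and RB1), and so did CDK4, E2F1 and CCND3 (r from 0.860 to 0.896). The sets ran against each other, most strongly CDK6 and CDK4 (r = -0.974). NS shRNA replicate 3, shRNA #1 replicate 1 and shRNA #2 replicate 2 were high for the first set, and NS shRNA replicate 1, shRNA #1 replicate 3 and shRNA #2 replicate 3 were low. These deviations were small for CCND1 (at most 0.03 on the log2 scale) and larger for RB1 (up to 0.22) and CCNE2 (up to 0.22). The canonical transcripts of the first set run from 2674 to 11663 bases and those of the second from 1865 to 2690 bases. The sets overlap slightly by this length, since CCNE2 (2674) is shorter than E2F1 (2690). By the union of exons they overlap more widely, from 4397 to 12239 bases in the first and from 2690 to 5761 bases in the second. The part of transcript length in this pattern was not tested. The libraries named above also deviated in common over 11631 genes. Between groups, libraries high for the first set correlated at r from 0.352 to 0.653, and the low ones from 0.539 to 0.619. High with low libraries correlated at r from -0.731 to -0.385. Whether the sets of genes go beyond this shared spread was not tested.

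**Figure D4:**
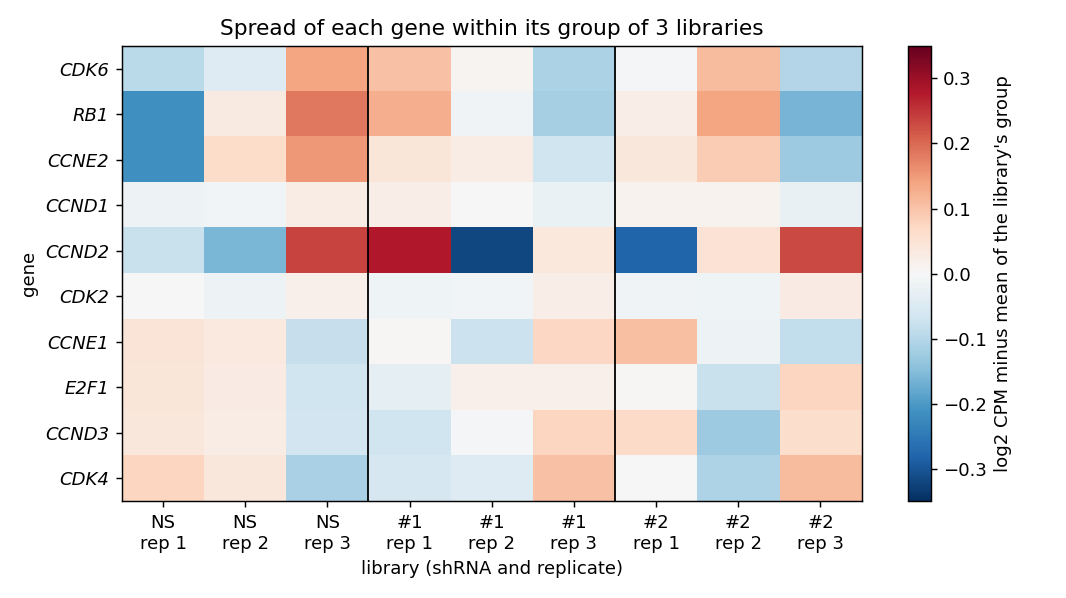
Log2 CPM of each of the 10 genes in each of the 9 libraries minus the mean of the library's group of 3, with red above and blue below the mean. CDK6, RB1, CCNE2 and CCND1 (top) are coloured opposite to E2F1, CCND3 and CDK4 (bottom) in most libraries, and CCND2, with the fewest reads, varies by itself. Libraries of different groups also shared deviations over 11631 genes.

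Of 59 other genes of the G1/S pathway in 7 lists, 57 were tested in each comparison. With shRNA #1, 11 were higher (19.3%, against 32.8% of all genes tested), 36 lower (63.2% against 33.3%) and 10 did not pass. With shRNA #2, 20 were higher (35.1% against 33.5%), 19 lower (33.3% against 33.4%) and 18 did not pass, shares close to those over all genes. The median log2 fold change of the 57 genes was -0.27 with shRNA #1 and 0.01 with shRNA #2, against 0.00 and 0.01 over all genes. Each list count below stands against the same shares over all genes. These are 32.8% higher and 33.3% lower with shRNA #1, and 33.5% higher and 33.4% lower with shRNA #2. No list was tested as a set. In the lists below, genes named with no more than a direction, and CDC6, E2F2, MNAT1, TFDP1 and TYMS, were named after their values had been seen.

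The CDK inhibitors restrain the kinases above, the p21 family (CDKN1A, CDKN1B and CDKN1C) acting on cyclin-CDK complexes and the INK4 family (CDKN2A to CDKN2D) on CDK4 and CDK6. CDKN1A, which encodes p21, rose from 1284 ± 43.7 to 5252 ± 51.3 normalized counts with shRNA #1 (log2 fold change 2.03, adjusted p = 5.25e-09 from limma) and from 1387 ± 42.4 to 4996 ± 227 with shRNA #2 (1.85, adjusted p = 7.11e-09). CDKN1C, which encodes p57, fell with both (log2 fold change -0.94, adjusted p = 5.11e-06, and -1.42, adjusted p = 1.94e-06 from limma), as did CDKN2C, which encodes p18 (-1.25, adjusted p = 2.02e-07, and -0.64, adjusted p = 1.74e-05). CDKN1B, which encodes p27, and CDKN2D, which encodes p19, fell with shRNA #1 (-0.24 and -0.76, adjusted p = 0.00346 and 7.78e-05 from limma) and had -0.01 and -0.15 with shRNA #2, which did not pass. CDKN2A and CDKN2B had 0 to 2 reads in every library and were not tested. Of the 5 tested, 1 was therefore higher and 4 lower with shRNA #1, and 1 higher and 2 lower with shRNA #2, with medians of -0.76 and -0.15.

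Of 9 other E2F and DP factors, 5 were higher and 4 lower with shRNA #1, and 6 higher and 2 lower with shRNA #2, with medians of 0.31 and 0.37. E2F7, a repressor of the family, rose by 1.32 and 0.88 on the log2 scale (adjusted p = 2.91e-07 and 1.88e-06 from limma), and E2F5, which works with the pocket protein p130, rose by 1.13 and 0.92 (adjusted p = 1.28e-07 and 4.48e-07). E2F3, E2F4 and E2F6 were also higher with both, E2F8 and TFDP2 were lower with both, and E2F2 was lower with shRNA #1 (-0.65) and had -0.09 with shRNA #2, which did not pass. TFDP1, the partner that E2F1 needs to bind DNA, was lower with shRNA #1 (-0.41) and higher with shRNA #2 (0.19).

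The pocket proteins related to RB1 and the DREAM and MuvB subunits, which hold cell cycle genes silent in resting cells, had 0 higher and 3 lower of 7 with shRNA #1 (RBL1, RBL2 and LIN9; 1 higher, LIN52, in limma without the trend and in the fit without shRNA #1 replicate 3) and 2 higher (LIN54 and RBBP4) and 2 lower (RBL2 and LIN9) with shRNA #2. RBL2, which encodes p130, fell by 0.70 and 0.77 on the log2 scale (adjusted p = 7.46e-05 and 2.95e-05 from limma), and LIN9 fell by 0.26 and 0.30. The medians of the list were -0.08 and 0.20. The CDK-activating kinase genes CDK7, CCNH and MNAT1 and CDC25A, a phosphatase that removes inhibitory phosphates from CDK2, all 4 rose with both hairpins, with medians of 0.46 and 0.80. CCNH, the cyclin of the activating kinase, rose by 0.76 and 1.06 and CDC25A by 0.42 and 1.18 (adjusted p from limma 2.16e-06, 2.33e-07, 0.000182 and 7.33e-08 in that order), while MNAT1 with shRNA #2 (0.21, adjusted p = 0.0300) did not pass with upper quartile rescaling (0.17, adjusted p = 0.0718).

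Of 7 genes of cyclin and inhibitor turnover, 0 were higher and 4 lower with shRNA #1 (SKP2, SKP1, RBX1 and AMBRA1), and 2 were higher (CKS1B and FBXW7) and 3 lower (SKP2, RBX1 and AMBRA1) with shRNA #2, with medians of -0.21 and 0.01. SKP2, the ligase subunit that marks p27 for breakdown, fell from 1215 ± 88.9 to 329 ± 12.4 normalized counts with shRNA #1 (log2 fold change -1.88, adjusted p = 6.69e-08 from limma) and from 1313 ± 97.8 to 866 ± 45.1 with shRNA #2 (-0.60, adjusted p = 5.60e-05). RBX1, the ring finger subunit of the same kind of ligase, fell by 0.45 and 0.24 (adjusted p = 0.00226 and 0.0496 from limma). The S and M phase cyclins and CDK1 were all 4 lower with both hairpins, with medians of -0.44 and -0.65. CCNB2 fell by 0.63 and 0.91 on the log2 scale (adjusted p = 8.20e-06 and 8.94e-07 from limma), and CCNA2, the cyclin that follows cyclin E on CDK2, fell by 0.62 and 0.60 (adjusted p = 1.36e-05 and 1.34e-05).

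Of 21 target genes of E2F factors, 17 were lower and 1 higher with shRNA #1 (median -0.41), where 33.3% of all genes tested were lower and 32.8% higher. With shRNA #2, 6 were lower and 5 higher (CDC6, MCM3, MYBL2, ORC1 and UHRF1) and 10 did not pass (median 0.01). Over all genes tested, 33.4% were lower and 33.5% higher with this hairpin. MCM5, a subunit of the replicative helicase, fell with both, from 3614 ± 24.6 to 1573 ± 36.7 normalized counts (log2 fold change -1.20, adjusted p = 5.82e-08 from limma) and from 3906 ± 40.2 to 2193 ± 112 (-0.83, adjusted p = 7.23e-07). PCNA, the sliding clamp of DNA polymerase, fell from 10082 ± 493 to 5036 ± 326 (-1.0, adjusted p = 6.83e-07 from limma) and from 10898 ± 547 to 9241 ± 470 (-0.24, adjusted p = 0.00455). CDC6, which loads the helicase, was the 1 gene higher with shRNA #1 (0.13, adjusted p = 0.0489 from limma), a call that was lost in 10 of 16 alternatives, edgeR, DESeq2 and 5 of the 6 fits without 1 library among them (adjusted p from 0.0243 to 0.158 over the 16). In the direct comparison 17 of the 21 were higher with shRNA #2 than with shRNA #1 and 1, TYMS, was lower, with a median log2 ratio of 0.41 (edgeR). Over all 14714 genes tested between the hairpins, 31.1% were higher and 32.1% lower. Upper quartile normalization left 14 of the 21 higher and 1 lower with a median of 0.33, where 3744 of all genes tested were higher and 5607 lower.

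**Figure D5:**
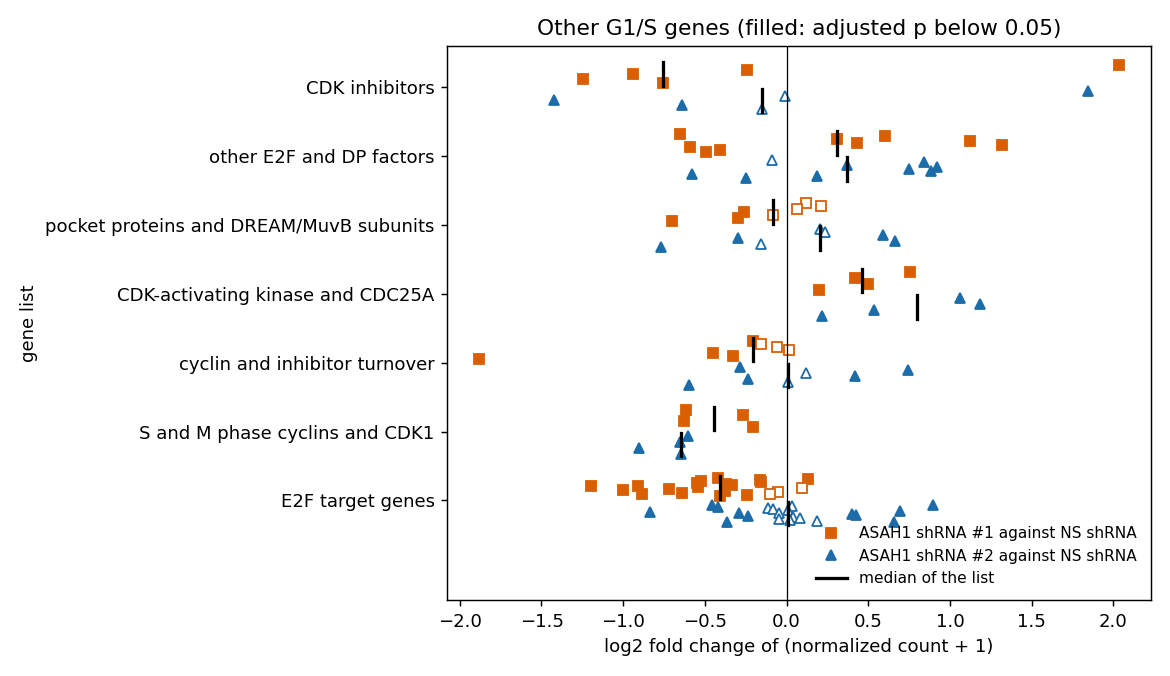
Log2 fold change of the 57 tested genes of 7 lists with ASAH1 shRNA #1 (squares) and #2 (triangles) against NS shRNA, on the log2(normalized count + 1) scale, with filled symbols at an adjusted p below 0.05 and a line at each median. The E2F target genes lie mostly below 0 with #1 (median -0.41) and on either side of 0 with #2 (median 0.01), and the S and M phase cyclins lie below 0 with both.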

How the data were processed

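RNA of 9 libraries was enriched with oligo-dT beads and sequenced by strand per the labels, although the design text names ribosomal RNA depletion. The authors used Trimmomatic 0.36 for trimming, STAR 2.7.1a for alignment to hg38 and DESeq2 1.28 for normalization, once per hairpin, and counted reads with htseq-count on the reverse strand over UCSC genes; elsewhere their methods give edgeR with TMM, RSEM and Bowtie2. The deposited signal per library is a read count divided by a size factor, and 100% of values came out whole (tolerance 0.01), so that reads were recovered. The tables also hold the authors' mean, log2 fold change, standard error, Wald statistic and p-values, which were not used. 28 symbols turned into dates in one table were taken from the other.

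Each hairpin was compared with NS shRNA within its own table by a two-sided limma 3.58.1 trend fit (R 4.3.3) of log2(value + 1), keeping genes whose mean reached 10 and adjusting by Benjamini-Hochberg to a threshold of 0.05. Hairpin #2 was set against #1 in edgeR 4.0.16, with TMM and the quasi-likelihood test on recovered reads. On the recovered reads, edgeR called 4696 genes higher and 4780 lower with shRNA #1, and 4783 and 4771 with shRNA #2. Ratios and shares were compared by exact permutation tests in SciPy 1.17.1. Gene positions and lengths come from GENCODE v44, promoters from RefSeq. Fits were tested on simulated data. Alternatives were other pseudocounts, filters and scalings, limma without the trend, edgeR, DESeq2 1.42.0, 1 fit of all libraries, a replicate block, other lengths, and each library left out. Besides the 10 genes, ASAH1 and the CDK inhibitors, the genes named by rule are, per list, the 2 with the largest mean change among those past the threshold in the same direction in both comparisons. Other list genes were named after their values had been seen. The 10 genes and the lists were chosen with earlier results of these data known. One marker is not reported here.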

Additional observations from a re-analysis of the deposited data

Results flagged for a closer look

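Between the hairpins, 5 of the 10 genes differed, by edgeR's quasi-likelihood test of the difference itself on the recovered reads. All 5 were higher with shRNA #2 and 0 were lower, where 31.1% of the 14714 genes tested were higher and 32.1% lower. The comparison cannot separate ASAH1 loss from other effects of a hairpin, and the cause was not tested. On the log2 scale the excess with shRNA #2 over shRNA #1 came to 0.73 for CCND1 (adjusted p = 1.91e-08 from edgeR), 1.55 for CCND2 (3.69e-05), 0.42 for CCND3 (0.000107), 0.59 for CCNE2 (0.000179) and 0.51 for E2F1 (7.93e-06). For each of the 5, all 3 libraries of shRNA #2 lay above all 3 of shRNA #1. This also held for CDK2, which did not pass (adjusted p = 0.152 from edgeR). The share of all genes without such overlap is not given here. CCND3 was the 1 gene called in opposite directions against NS shRNA.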

How the results depend on the processing

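The calls of CCND1, CCND2, CCNE1, CCNE2, CDK4 and CDK6 against NS shRNA kept their direction and their side of the threshold in every alternative run, except that CCND2 with shRNA #1 was not tested at a mean of at least 50. The choices other than the replicate block that ended or made a call of CCND3, E2F1, RB1 or CDK4 are given beside those genes. With the canonical transcript as the length, the share of CCND1 in the D-type cyclins differed by 3.18 percentage points with shRNA #1, 7.66 with shRNA #2 and 4.48 between hairpins, and that of CCND3 by -3.25, -7.80 and -4.56. Without division by length the differences in the share of CCND2 were 0.130, 0.259 and 0.129 points. Values near 0 changed sign. With upper quartile rescaling CDK2 was -0.0403 with shRNA #2 and -0.0072 between hairpins, and CCNE1 was -0.0401 between hairpins. With each library left out in turn, CDK2 with shRNA #2 ran from -0.0079 to 0.015, RB1 with shRNA #2 from -0.13 to 0.0732 and CCNE1 between hairpins from -0.0086 to 0.090. The log2 ratio of CDK6 to CDK4 between hairpins ran from -0.065 to 0.15, within 1 SD of the libraries. With it, 240 values stayed within 1.5 times (counts of the 10 genes and of the 57 pathway genes) or within 1 SD (shares and ratios) of those reported, though single genes behind the counts crossed the threshold. Counts of 1 or 0 in single lists that changed are given beside CDC6 and LIN52. Replicate numbers were not seen to pair the samples. Deviations of same-numbered libraries correlated from -0.73 to -0.17 between NS shRNA and the hairpins and from 0.034 to 0.62 between the hairpins. Not every library correlated best with its own number. The check cannot decide whether a weaker pairing lies beneath the spread that the libraries share over all genes. With the replicate block, 6 of the 10 genes passed with shRNA #1 in place of 7, CCND3 being lost (adjusted p = 0.115 from limma), 6 with shRNA #2 and 5 between the hairpins. Depth limits CCND2 most, with 7 to 10 reads per NS shRNA library.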
